A study of Mus musculus with 4 samples.

Results

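The E2A ChIP-Seq peak list of L-DKO double-positive (DP) thymocytes held 17532 peaks of the 19048 in the 2 peak lists of the study, the other 1516 coming from L-DKO iNKT cells. Every peak of the DP list was taken, with no threshold beyond that of the authors' peak caller, and is described here by its place in the genome and among the genes. In ChIP-Seq, DNA bound by a protein is precipitated with an antibody and sequenced, and a peak is a stretch where these reads exceed those of a control. The study asked how E2A acts in thymocytes that lack Id proteins, and measured 1 E2A library and 1 input library, which is not precipitated, in each of the 2 cell types. The DP library was called against its own input. L-DKO mice are deficient in Id2 and Id3, with loxP-flanked alleles of both (Id2 f/f Id3 f/f) deleted by LckCre, a Cre recombinase driven by the Lck promoter, which is active in T lineage cells. The mice were 3 to 5 weeks old and on a C57BL/6 background or hybrids of C57BL/6 and 129. Each sample was pooled from 3 to 4 mice, and DP cells were sorted from the thymus as CD1dTet- CD4+ CD8+, which leaves out cells that bind CD1d tetramer. The DP and iNKT libraries share the genotype, the age and the antibody, anti-E2A V-18, and no ChIP-Seq library from Id-sufficient cells was among the samples used here, so binding that depends on the loss of Id proteins cannot be told apart from binding in any DP cell.

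With 1 library, no value has a replicate error and no test between groups was made. Intervals are 95% Wilson intervals and cover counting error only. For each peak the list gives where it lies and a score, and the depth of the library is unknown. Scores were used only as ranks within the DP list, with rank 1 the highest and tied peaks sharing the best rank of the tie. A group of 258 peaks was tied at rank 27, all with a score of 3100, and 26 peaks lay above it. Whether this shared score is a ceiling was not tested, so ranks 1 to 26 are not read as stronger binding than the tied peaks. The median peak width was 984 bp, with quartiles of 783 and 1314 bp and a range of 198 to 10260 bp.

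E2A is a basic helix-loop-helix transcription factor, made as the E12 and E47 forms from the gene Tcf3. It binds the E-box, a 6-base element written CANNTG, as a homodimer or with related E proteins such as HEB, the product of Tcf12. Id proteins dimerise with E proteins but lack the basic region that touches DNA, and so keep them off E-boxes. In DP thymocytes, which rearrange the TCR alpha locus and are then selected on their receptor, E proteins are known for activating genes of receptor assembly and of the DP stage and for holding cells at that stage until the TCR signals.

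The sequences that follow come from high-ranked peaks. Each is 100 bases around the E-box nearest the midpoint of the peak. The E-boxes sought were CAGGTG, its reverse complement CACCTG, and CAGCTG, which is its own reverse complement. Every sequence thus holds an E-box by choice, and that E-box lay from 3 bp (Ccr9) to 441 bp (Dntt) from the midpoint. The first 5 come from the best-ranked peaks of 5 classes of annotation (promoter, intergenic, first intron, other intron and downstream), and the other 5 from the best peaks of DP marker genes with a peak in the top 10% of ranks. They were read from the plus strand of NCBIM37, the same assembly as mm9, and capitals mark every one of these E-boxes. Each is named by the gene that its peak was given to, which for Fkbp11 is not the gene whose first intron holds it. Another 3 windows chosen by the same rule, at Crispld2, Cd4 and Cd8a, overlapped untranslated exon sequence and are not printed.
Aes promoter, chr10:81023621-81023720: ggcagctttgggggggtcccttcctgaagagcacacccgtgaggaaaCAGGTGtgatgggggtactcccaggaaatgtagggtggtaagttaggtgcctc
Intergenic chromosome 13, chr13:98594037-98594136: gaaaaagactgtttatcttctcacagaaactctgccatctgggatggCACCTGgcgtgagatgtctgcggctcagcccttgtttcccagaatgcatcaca
Fkbp11, chr15:98574456-98574555: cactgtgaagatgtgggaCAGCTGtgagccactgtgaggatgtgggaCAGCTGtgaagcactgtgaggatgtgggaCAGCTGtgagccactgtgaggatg
B230120H23Rik, chr2:72237949-72238048: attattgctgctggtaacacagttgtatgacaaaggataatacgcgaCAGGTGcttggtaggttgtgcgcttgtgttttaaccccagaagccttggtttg
Trim72, chr7:135155756-135155855: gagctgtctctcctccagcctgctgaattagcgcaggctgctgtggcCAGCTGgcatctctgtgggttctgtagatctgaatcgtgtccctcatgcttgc
Arpp21, chr9:112120284-112120383: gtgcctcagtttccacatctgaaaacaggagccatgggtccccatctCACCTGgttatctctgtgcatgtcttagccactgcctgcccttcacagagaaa
Cd8b1, chr6:71283212-71283311: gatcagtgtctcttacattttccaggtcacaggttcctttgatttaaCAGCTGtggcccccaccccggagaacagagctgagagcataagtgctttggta
Ccr9, chr9:123663635-123663734: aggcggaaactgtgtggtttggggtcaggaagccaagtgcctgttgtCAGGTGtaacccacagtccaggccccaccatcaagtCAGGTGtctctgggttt
Dntt, chr19:41095727-41095826: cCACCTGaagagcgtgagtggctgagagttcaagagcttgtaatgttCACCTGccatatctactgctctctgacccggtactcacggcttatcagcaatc
Themis, chr10:28520908-28521007: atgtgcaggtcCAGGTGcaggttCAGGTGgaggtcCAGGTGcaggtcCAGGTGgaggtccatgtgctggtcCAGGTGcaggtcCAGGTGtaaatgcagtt

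The Aes window held 1 E-box, and the Aes peak, from 81022339 to 81024863 on chromosome 10, held 5 over its 2525 bp. The Fkbp11 peak, from 98573551 to 98575433 on chromosome 15, held 18, and the printed window shows 3 of them in a repeated unit. The Themis peak, from 28520260 to 28521673 on chromosome 10, held 16, some of them again in a repeated unit in the printed window. Across all peaks the median was 2 E-boxes of these kinds per peak, and 460 peaks (2.62%) held 10 or more.

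Peaks lay close to start sites but mostly not at them. The midpoint of 2957 peaks, 16.9% (16.3 to 17.4%), was within 1 kb of the start of a protein-coding transcript, a zone that holds 2.31% of the assembled genome, a 7.31-fold excess. A further 13.5% lay at 1 to 5 kb and 10.9% at 5 to 10 kb. The largest class was 10 to 50 kb, with 36.2% of peaks. Only 10.8% lay more than 100 kb from any start site, where 37.7% of the genome lies. The median distance was 15.1 kb (quartiles 3.10 and 44.0 kb), against 55.5 kb for genome positions taken every 100 bp. Of the 4278 peaks at 1 to 10 kb, 1932 were upstream and 2346 downstream of the nearest start, so that 45.2% (43.7 to 46.7%) were upstream.

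**Figure D1:**
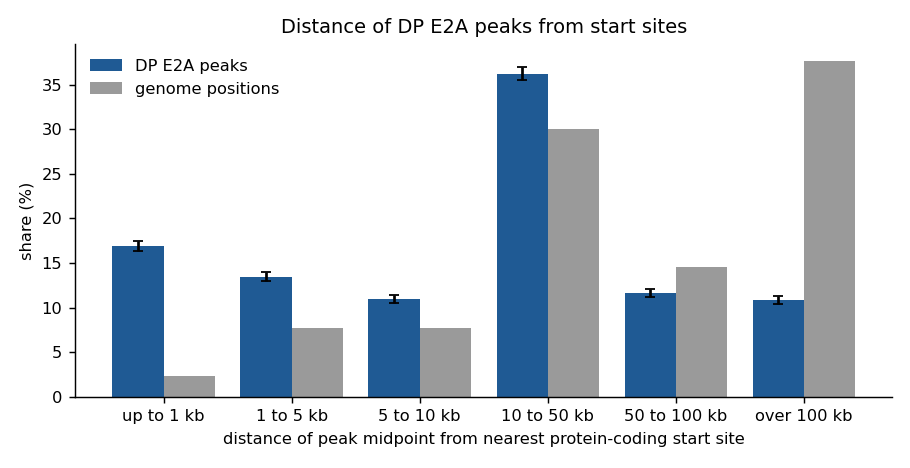
The share of DP E2A peaks (blue bars, with 95% Wilson intervals) and of genome positions (grey bars) is plotted in percent for 6 classes of distance from the nearest protein-coding start site. Within 1 kb stood 16.9% of peaks and 2.31% of the genome, and over 100 kb 10.8% of peaks and 37.7% of the genome.

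By annotation, most peaks lay in intergenic sequence and introns. A midpoint was placed in the first of these classes that held it: promoter (within 1 kb of a start), exon, first intron, other intron, the 5 kb after a gene, and intergenic. Intergenic sequence held 35.6% of peaks and 58.0% of the genome, and other introns 22.2% of peaks and 23.3% of the genome. First introns held 17.8% of peaks, a 1.58-fold excess over their 11.3% of the genome. Exons and downstream sequence held 3.34% and 4.23%.

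The strongest peaks were those least often at promoters. Promoters held 8.55% (7.33 to 9.95%) of the top 10% of ranks, 16.8% (15.1 to 18.6%) of group 5 of the 10 groups and 21.8% (19.9 to 23.8%) of the lowest. Only 5.07% of promoter peaks were in the top 10%. The median rank of promoter peaks was 10398, and the medians of the other 5 annotation classes lay between 8095 and 8500. Intergenic peaks went the other way, with 40.3% of the top 10% and 32.6% of the lowest. The median distance to a start site fell from 20.2 kb in the top 10% to 12.8 kb in the lowest. Peak width fell with rank too, from a median of 1878.5 bp in the top 10% to 687 bp in the lowest, and the part of width in the rank was not tested.

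**Figure D2:**
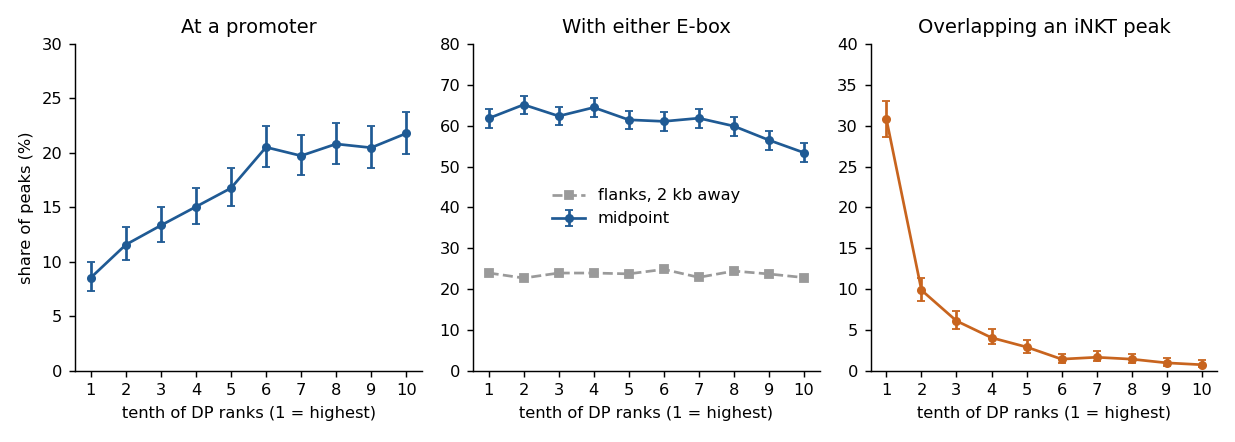
DP peaks are split by rank into 10 groups of equal size, with group 1 the highest, and the share of each group is plotted in percent with 95% Wilson intervals for peaks at a promoter, peaks with CAGGTG or CAGCTG in 200 bp at the midpoint (grey squares give the flanks 2 kb away) and peaks that overlap an iNKT peak. The promoter share went from 8.55% to 21.8%, the E-box share from 61.8% to 53.4%, and the share with an iNKT peak from 30.8% to 0.742%.

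Most protein-coding genes had no E2A peak, and a small number had many. The territory of a gene was set here as its body with 30 kb before it and 5 kb after it. A peak went to the gene whose territory covered its midpoint, and where several did, to the one that starts nearest. This placed 13895 peaks and left 3637 (20.7%) with no gene, or 24.9% of the top 10% and 19.2% of the lowest. Of 22342 protein-coding genes, 6245 (28.0%) had at least 1 peak, 2735 (12.2%) had one within 1 kb of a start site, 1024 (4.58%) had one in the top 10% of ranks and 644 (2.88%) had 5 or more. One peak was given to 3380 genes, 2 peaks to 1306 genes and 3 to 4 peaks to 915. The 113 genes with 10 or more held 1526 peaks, 10.98% of those assigned, and 84.1% of these genes had a peak in the top 10% of ranks. Longer territories held a peak more often, from 11.3% of genes in the shortest 20% of territories to 45.7% in the longest, while the density in them ran only from 0.425 to 0.729 peaks per 100 kb, with a maximum of 0.970 in the next longest group.

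The gene with the most peaks by this rule was Gm20388 with 50, a gene model of 4435 kb on chromosome 8 that overlaps 74 other protein-coding genes. None of its 50 peaks lay in the territory of another gene, so without this model they would have been given to no gene. Sept9, which encodes a septin of the cytoskeleton, followed with 25 peaks in a territory of 198 kb, 5 of them within 1 kb of a start. Eif4e3, which encodes a cap-binding translation factor, had 24 peaks in 444 kb, of which 19 were classed as intergenic and 5 were in introns of its coding transcripts, so most of its count lay outside these transcripts and up to 364 kb from a start. Mad1l1, whose product acts in the spindle checkpoint, had 23, of which 6 were in the top 10% of ranks. Ldlrad3 had 22, of which 7 were in the top 10%. Lpp, Arid1b (a subunit of the BAF chromatin remodelling complex) and Prex1 (an exchange factor for Rac) had 21 each, and Gse1 and Tbc1d22a had 20 each.

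Per length of its own territory, the densest gene among those with at least 5 peaks was Stmn1. Stmn1, whose product destabilises microtubules, had 22.2 peaks per 100 kb of territory, with 9 peaks and a best rank of 4759. Cdkn1a, which encodes the cell cycle inhibitor p21, had 20.1 per 100 kb, with 9 peaks between rank 1581 and rank 16673, of which 7 lay 9.04 to 26.6 kb upstream of its start. Rhoh, a GTPase of blood cells needed for TCR signaling, had 19.1 per 100 kb, with 13 peaks. Dusp2, a phosphatase that acts on MAP kinases, and Id3 had 18.8 per 100 kb each, with 7 peaks apiece. Counted in the same way, with assigned peaks over the summed territories, the value over all protein-coding genes was 0.773 peaks per 100 kb.

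The 2 peaks that shared rank 1 were at the promoter of Aes, which encodes a short member of the Groucho family of corepressors, 0.322 kb upstream of the nearest of its transcript starts, and in intergenic sequence of chromosome 13, from 98593294 to 98594981. The next peaks given to a gene went to Fkbp11 (rank 4, 15.9 kb upstream of its start and in the first intron of another gene), B230120H23Rik (rank 5), Epas1 (rank 6), Smarca4 (rank 7), Trim72 (rank 8) and Chaf1b (rank 9). Smarca4 encodes an ATPase of the BAF complex, and Chaf1b a subunit of a histone chaperone that acts in DNA replication. Jakmip1, Gse1, Gtf2ird1, Crispld2, Cd97, Gm525 and Kremen1 held ranks 11 to 14 and 16 to 18. Whether the peaks of ranks 1 to 20 are stronger sites than the 258 tied at rank 27 was not tested. Intergenic peaks held ranks 3, 10, 15, 19 and 20. By position alone, the nearest coding start was that of Kcnh8 at 124 kb for rank 3, Smndc1 at 33.7 kb for rank 10, Tnfsf11 at 48.5 kb for rank 15, Il6st at 49.1 kb for rank 19 and Ebf1 at 39.2 kb for rank 20.

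Genes of T cell identity and TCR signaling held peaks far more often than genes at large. The lists were drawn up with earlier results of these data known, so the contrast is a description and not a test. In all, 35 classes of genes were described, 21 of them listed gene by gene, DP markers included, and 14 taken by gene name, beside the background of 28.0% of coding genes with a peak and 4.58% with a peak in the top 10% of ranks. All 12 DP markers and all 4 genes of the TCR and CD3 complex that were found had a peak, the latter being Cd247, Cd3d, Cd3e and Cd3g with no gene of a TCR chain. The classes overlap, and all DP markers but Arpp21 are also members of another class. Coreceptors and thymocyte surface molecules (15 of 16, 93.8%), TCR signaling (38 of 41, 92.7%) and T lineage transcription factors (30 of 34, 88.2%) came next. The share with a peak in the top 10% of ranks was 75% in the TCR and CD3 complex, 58.3% in DP markers, 50% in surface molecules, 43.9% in TCR signaling, 35.7% in V(D)J recombination and 29.4% in T lineage transcription factors. For classes, density was taken as all peaks in the merged territories of the members, which gives 1.01 peaks per 100 kb over all genes. It was 10.9 in the TCR and CD3 complex, 7.82 in surface molecules, 5.49 in DP markers, 5.05 in TCR signaling, 4.87 in chemokine and egress receptors, 4.73 in T lineage transcription factors and 4.57 in histones. V(D)J recombination, with its high share of top ranks, had 2.66.

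**Figure D3:**
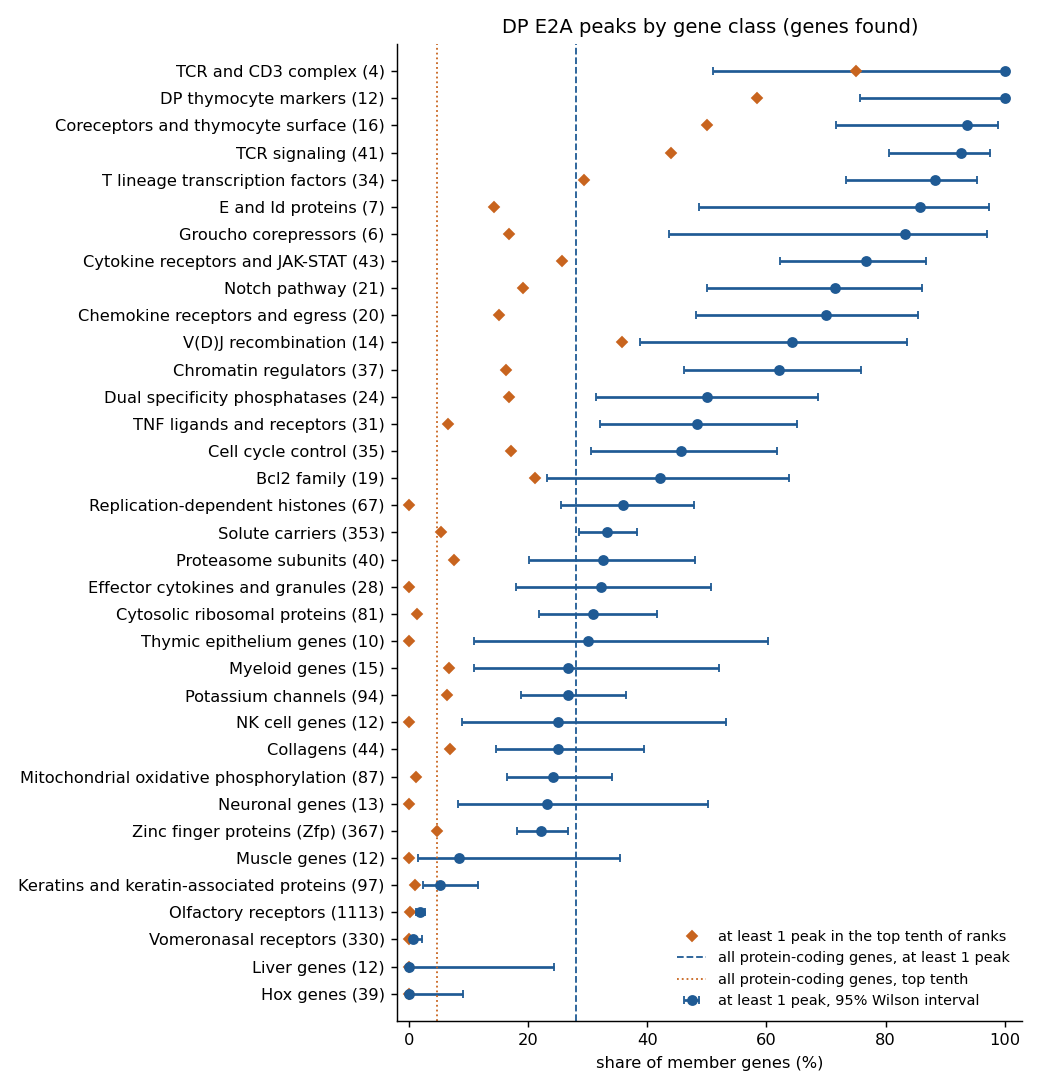
For 35 gene classes (number of genes found in brackets) the share of members with at least 1 DP E2A peak is plotted in percent (blue points, 95% Wilson intervals) with the share that had a peak in the top 10% of ranks (orange diamonds). Lines give the values of all protein-coding genes, 28.0% and 4.58%. T cell classes are at the top, and vomeronasal receptors, liver genes and Hox genes at the bottom.

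The DP markers are a list of genes of the DP stage and do not test the label of the sample. Peaks mark binding and not expression, so they cannot show the cell type by themselves. Distances of peaks from a gene are given to the nearest start of any of its protein-coding transcripts. Ptcra, listed among them, is annotated as an immunoglobulin-type gene and not as protein-coding, and was not analysed here. Cd8a, which encodes the CD8 alpha chain, had 6 peaks, and the best, from 71318180 to 71327173 on chromosome 6, was at the tied rank 27 and spanned 8994 bp over its start. The other 5 lay 12.6 to 24.9 kb upstream, at ranks 809, 3342, 4187, 11104 and 15070. Cd8b1, its neighbour, had 8 peaks, at ranks 709, 732, 863, 1180, 8870, 13790, 14951 and 16051. Both coreceptor genes for CD8 thus had more than 1 peak in the top 10% of ranks, and they share a locus. Cd4 had 4 peaks, at ranks 476, 3784, 4920 and 6510, and the best of them lay 0.011 kb from an inner transcript start, 8.52 kb past the outermost one.

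Recombination and migration genes of the DP stage differed in where they were bound. Dntt, which encodes the terminal transferase that adds bases at V(D)J joints, had 6 peaks, at ranks 513, 671, 2035, 5271, 7896 and 8791, and the best lay 7.55 kb upstream. Rag2 had 1 peak, at rank 2736 and 0.057 kb from its start. Rag1 had 1 peak, at rank 10415 and 1.21 kb from its start. The recombinase genes themselves were thus outside the top 10%. Ccr9, a chemokine receptor of DP cells, had 7 peaks, and its best 2, at ranks 325 and 548, lay 12.6 and 10.4 kb before its nearest transcript start, inside the first intron of a longer transcript that starts 76.1 and 78.3 kb away. Arpp21 had 9 peaks, with ranks 27 and 313 for the best 2, and Themis, which acts in TCR signaling at selection, had 3, at ranks 804, 5714 and 6106. Satb1, a chromatin organiser, had 7 peaks from rank 2242, Tcf12 had 5 from rank 3396 and Cd1d1, which encodes the molecule that presents lipid to iNKT cells, had 2 at ranks 5485 and 15748. Of the 12 genes, 7 had a peak in the top 10% of ranks (4.58% of all genes), 11 a peak within 1 kb of a start (12.2% of all genes) and 7 at least 5 peaks (2.88% of all genes).

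**Figure D4:**
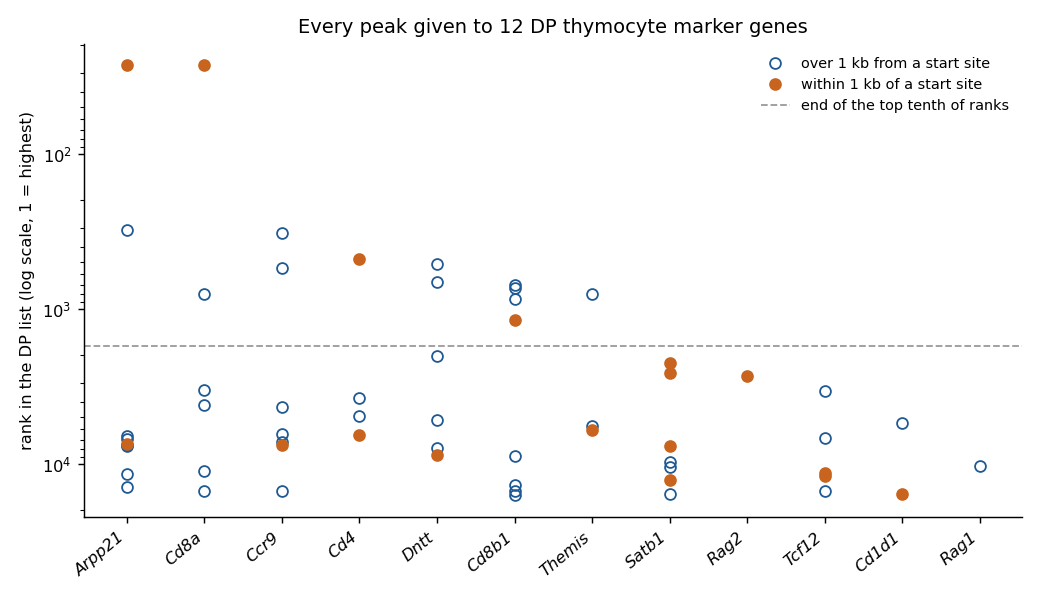
Each point is 1 peak given to a DP marker gene, plotted by its rank in the DP list on a log scale with rank 1 at the top. Filled orange points lie within 1 kb of a start of that gene and open blue points farther away, and 7 of 12 genes have a point above the dashed line that ends the top 10% of ranks.

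In the TCR and CD3 complex most peaks were at Cd247, the gene of the CD3 zeta chain. Cd247 had 13 peaks, with 2 at the tied rank 27, both in its first intron, 14.3 and 55.7 kb from the start, and the next at ranks 1825 and 2941. Cd3e had 6 peaks, the best at rank 1122. Cd3g had 1 peak at rank 517, 0.674 kb upstream of its start, and Cd3d had 1 at rank 2678. Cd3d and Cd3g are neighbours, and a peak between them is given to 1 only. In TCR signaling, Lcp2, which encodes the adaptor SLP-76, and Nfatc3 each had 8 peaks with a best rank of 27. The adaptors Sla2 and Sla, which lower TCR signals, had 3 peaks with a best rank of 385 and 15 peaks with a best rank of 439. The 3 members with no peak were Bcl10, Nck1 and Sos1. Among surface molecules, Cd44 had 6 peaks with a best rank of 324, behind Cd8a and ahead of Cd4 and Cd8b1, and Cd24a alone had none.

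Of the T lineage transcription factors, Ets1 and Sox4 held peaks at the tied rank 27. Ets1 had 19 peaks, of which the best was 50.7 kb past the nearest transcript start and 110 kb past the outermost one, and the peak within 1 kb of an inner start was at rank 17412. Sox4, an HMG box factor, had its 2 best peaks at rank 27, 5.39 and 21.4 kb upstream of its start. A nested second entry of Sox4 in the annotation, from 29042607 to 29043011, was given 2 other peaks, the best at rank 16215. Bcl11b, a factor of T lineage commitment, had 10 peaks, 3 of them in the top 10% at ranks 319, 888 and 1229 and all 3 in its first intron, 38.4 to 76.8 kb from the start. Nr4a1, which is induced by TCR signals, had 7 peaks with a best rank of 465. Ets1 had 3 other peaks in the top 10%, at rank 903 inside the gene and at ranks 752 and 1573, which lay 19.6 and 27.2 kb upstream of it. Members with no peak by this rule were Gata3, Cbfb, Eomes and Tbx21. With the nearest start within 100 kb the class share was 94.1% in place of 88.2%, beside 29.8% of all genes. The absence thus depends on the rule for some of these genes. The study itself reports E2A peaks at the genes of the factors found by its motif search, GATA3 among them. Gfi1, also listed, is not annotated as protein-coding in this release and was not analysed here.

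Of the E proteins and their inhibitors 6 of 7 had a peak, beside 28.0% of all genes, and only Id2 had one in the top 10% of ranks. Id2 had 3 peaks, the best at rank 1439, 3.04 kb past its start and downstream of the gene. Id3 had 7 peaks, at ranks 2858, 4292, 4598, 9983, 9992, 10561 and 13505, with 3 of them over 15 kb upstream. The floxed alleles of Id2 and Id3 are the ones deleted in these mice, and the Id3 peak at rank 9992, from 135700216 to 135701304 on chromosome 4, lies within the Id3 gene (135699412 to 135701670). The extent of the deleted part was not analysed here. Tcf12 had 5 peaks, Id1 had 2 with a best rank of 5185, Tcf4 had 3 with a best rank of 11495, and Tcf3, which encodes E2A, had 1 at rank 13580. Id4 had none. Of the Groucho corepressors, Aes held rank 1, Tle3, Tle6 and Tle4 had best ranks of 4106, 4579 and 9214, Tle2 had 2 peaks from rank 9575, and Tle1 had none.

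Genes of signaling from outside the cell had a peak more often than the background of 28.0%. Of 21 genes of the Notch pathway, which drives T lineage commitment, 15 (71.4%) had a peak. Notch3 had 4 with a best rank of 27, 2.48 kb inside its first intron, Maml3, a coactivator, had 17 with a best rank of 343, Notch1 had 5 with a best rank of 635, and Jag2, a ligand, had 2 with a best rank of 1287. Of 43 cytokine receptors and members of the JAK-STAT pathway, 33 (76.7%) had a peak, led by Il21r (7 peaks, rank 27), Il6ra (3, rank 402), Il2ra (7, rank 551) and Tgfbr2 (8, rank 833). Of 20 chemokine and egress receptors 14 (70.0%) had one, with Ccr9, Cxcr4 (6 peaks, rank 380), Cxcr5 (6, rank 1141) and Ccr7 (7, rank 2653) in front. The chemokine and egress share depended on the territory, and with gene bodies and 5 kb upstream it was 40%, against 24.2% of all genes. In V(D)J recombination, 9 of 14 (64.3%) had a peak, and the best ranks were at Poll and Xrcc6 (both rank 27), Dclre1c (rank 440) and Dntt. The 5 without were Hmgb2, Nhej1, Prkdc, Xrcc4 and Xrcc5.

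Cell cycle and survival genes were bound at some members and not at others, beside 28.0% of all genes with a peak. Ccnd3, the D-type cyclin known for proliferation before the DP stage, had 16 peaks, with 2 at rank 27, 26.6 and 37.5 kb inside its first intron. E2f2 (2 peaks, rank 27), E2f1 (2, rank 700) and Ccne1 (2, rank 762) followed, and 16 of 35 cell cycle genes (45.7%) had a peak. In the Bcl2 family 8 of 19 (42.1%, 23.1 to 63.7%, an interval that includes the background) did, led by Bcl2l1, whose product Bcl-xL keeps DP cells alive, with 10 peaks and a best rank of 27. Bid (4 peaks, rank 724), Bcl2l11 (6, rank 777) and Bbc3 (3, rank 816), which promote death, came after it. Of 37 chromatin regulators 23 (62.2%) had a peak, with Smarca4, Chd7 (2 peaks, rank 27), Arid1b (21, rank 662) and Hdac7 (7, rank 1431) the best ranked. Dual specificity phosphatases, which switch off MAP kinases, had 12 of 24 (50%), led by Dusp5 (7 peaks, rank 455), and TNF ligands and receptors 15 of 31 (48.4%), led by Tnfrsf1a (2, rank 27). With the upper 50% of ranks alone the TNF share was 16.1%, below the 16.9% of all genes.

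Housekeeping genes and solute carriers were closer to the background than the T cell classes. Cytosolic ribosomal proteins had a peak in 25 of 81 (30.9%), mitochondrial oxidative phosphorylation genes in 21 of 87 (24.1%), proteasome subunits in 13 of 40 (32.5%) and solute carriers in 117 of 353 (33.1%, 28.4 to 38.2%), against 28.0% of all genes. With the upper 50% of ranks alone the share of oxidative phosphorylation genes was 8.05% and that of ribosomal protein genes 14.8%, against 16.9% of all genes. A peak in the top 10% of ranks was held by 1.23%, 1.15%, 7.5% and 5.38% of these classes in turn, against 4.58% of all genes. The density of ribosomal protein genes was 2.28 peaks per 100 kb, above the 1.01 of all genes. Replication-dependent histones were set apart by promoter peaks and density. They had a peak in 24 of 67 (35.8%, 25.4 to 47.8%), but in 10.4% with the upper 50% of ranks alone, below the 16.9% of all genes. They had a promoter peak in 20 (29.9%), where all genes had 12.2%, yet none in the top 10% of ranks, and the best ranks were 3862 at Hist1h1d and 4180 at Hist1h1c. Their density was 4.57 peaks per 100 kb. These histone genes lie in clusters, and neighbours can share a peak. Effector cytokine and granule genes, which mature T cells and NK cells use, had 9 of 28 (32.1%, 17.9 to 50.7%) and none in the top 10%. Ltb (2 peaks, rank 1840), Gzma (1, rank 1899), Ccl4 (2, rank 4377) and Prf1 (1, rank 5280) were in front. With gene bodies and 5 kb upstream the effector share was 21.4%, below the 24.2% of all genes. With the nearest start within 100 kb it was 46.4%, against 29.8% of all genes. Zinc finger genes named Zfp were below the background, at 81 of 367 (22.1%).

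Lists of other cell types ran from the background to no peak at all, and those of myeloid, NK cell, thymic epithelium, neuronal and muscle genes had intervals that include the 28.0% of all genes. The myeloid list had 4 of 15 (26.7%, 10.9 to 52.0%), of which Itgam, an integrin chain of myeloid cells, had 9 peaks with a best rank of 27, Cebpe and Cebpb had 1 each, and Spi1, which appears in the annotation under its older symbol Sfpi1, had 1 at rank 17196. The NK cell list had 3 of 12 (25%, Klrb1c, Klrk1 and Klrb1b). This share fell to 8.33% (1.49 to 35.4%) with the upper 50% of ranks alone, against 16.9% of all genes. It was also 8.33% with gene bodies and 5 kb upstream, against 24.2% of all genes. The interval includes both of these backgrounds. The thymic epithelium list had 3 of 10 (30%, Ly75, Epcam and Aire). Neuronal genes had 3 of 13 (23.1%, Tubb3, Rbfox3 and Grin1), muscle genes 1 of 12 (8.33%, 1.49 to 35.4%, Actn2) and liver genes 0 of 12. Collagens had 11 of 44 (25%) and potassium channels 25 of 94 (26.6%). With the upper 50% of ranks alone both lay above the 16.9% of all genes, at 20.5% and 18.1%. Their densities, 0.408 and 0.562 peaks per 100 kb, were below the 1.01 of all genes. Their median territories, 146 and 62.5 kb, were longer than the 50.4 kb of all genes. No Hox gene of 39 had a peak. Taking 3 counts as the limit that a count of 0 allows, the liver and Hox shares could be up to 25% and 7.69%. The upper Wilson limits of these 2 shares were 24.2% and 8.97%. Keratin genes had 5 of 97 (5.15%), namely Krtap13-1, Krtap5-4, Krt28, Krt222 and Krtap5-5. Olfactory receptors had 19 of 1113 (1.71%, 1.096 to 2.65%), and vomeronasal receptors 2 of 330 (0.606%), Vmn1r1 and Vmn1r234. Many receptor genes of these kinds are near copies of one another, and reads that could be placed at more than 1 position were not kept. The part of this filter in the low shares was not tested.

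Peaks were most dense on chromosome 11, with 12.2 per Mb of assembled sequence, ahead of chromosomes 17 (10.1), 15 (8.68) and 19 (8.67). Chromosome 14 was the sparsest autosome, with 4.92 per Mb. The X chromosome had 233 peaks, or 1.44 per Mb against 7.23 on the autosomes together, a ratio of 0.199 (0.175 to 0.226 for counting error). The X holds fewer genes per Mb (5.75 against 8.94), and per gene the ratio was 0.309. Of its 932 protein-coding genes 10.9% had a peak, and 24.5% of its peaks were at promoters. The sex of the pooled mice was not given, and the part of X copy number in this ratio was not tested. Across the 20 chromosomes peaks per Mb and genes per Mb rose together (Pearson's r 0.714, Spearman's rank correlation 0.723), and across the 19 autosomes these were 0.712 and 0.677. Peaks per Mb rose to a like degree with the GC content of the chromosome (Spearman's rank correlation 0.729 over the 20 chromosomes). These are descriptions over chromosomes of 1 library.

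**Figure D5:**
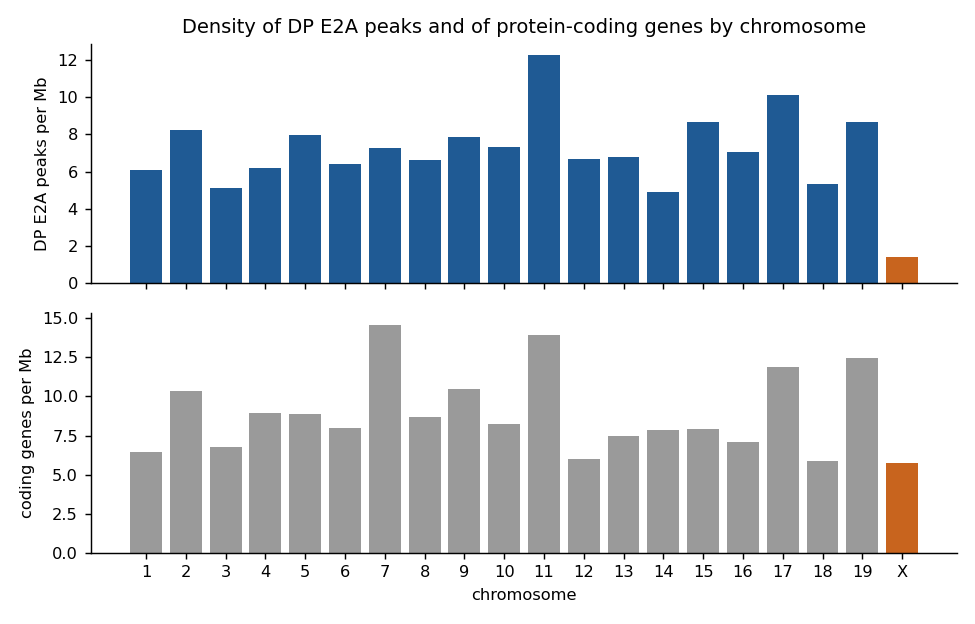
The upper bars give DP E2A peaks per Mb of assembled sequence and the lower bars protein-coding genes per Mb, for the 19 autosomes and the X (orange). Chromosome 11 stands highest with 12.2 peaks per Mb, and the X lowest with 1.44.

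In windows of 1 Mb the peaks were clustered. Of 2565 windows, 897 (35.0%) had no peak, the median was 3 and 95 windows had 30 or more. On the X 62.8% of windows were empty, against 33.1% on the autosomes. The densest 256 windows held 42.7% of peaks and 19.8% of the protein-coding genes. The window with the most peaks, 73, was from 117000001 to 118000000 on chromosome 11 and included 25 peaks of Sept9. The next held 61 peaks, from 29000001 to 30000000 on chromosome 17, where Cdkn1a and Rab44 had 9 each. A window with a single coding start, from 24000001 to 25000000 on chromosome 16, held 46 peaks, of which 21 were given to Lpp. Of 190 windows with at least 25 genes 22 had no peak, and in 16 of those at least 50% of the genes were olfactory or vomeronasal receptors. The median distance from a peak to the nearest other peak was 8.15 kb, and 54.7% of peaks had another within 10 kb.

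The E-boxes that E2A is known to prefer were concentrated at the middle of the peaks. Each of the 10 distinct forms of CANNTG was looked for, on either strand, in the central 200 bp of each peak and in flanks of 200 bp lying 2 kb to either side. CAGGTG was in 43.9% (43.2 to 44.7%) of midpoint windows and 15.6% of flanks, a 2.82-fold difference. CAGCTG was in 29.0% (28.4 to 29.7%) and 9.86%, a 2.94-fold difference. CACGTG (1.82-fold), CATCTG (1.49-fold) and CAGTTG (1.12-fold) were also above the flanks, and the other 5 forms were below them, at 0.622 to 0.901 of the flank share. CAGGTG occurred 3.35 times per kb in the 50 bp to the right of the midpoint and 0.809 times in the last 50 bp of the 1 kb to the right. GC content was higher at the midpoints (51.3%) than in the flanks (46.3%), and its part in these folds was not tested.

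The E-box share was lowest in the last groups of rank. CAGGTG or CAGCTG stood in 60.8% (60.1 to 61.5%) of all midpoint windows and 23.7% of flanks. It was 61.8% (59.5 to 64.0%) in the top 10% of ranks, 65.1% in the next group and 53.4% (51.1 to 55.7%) in the lowest. Promoter peaks held one in 50.3%, and other peaks in 62.9%. CAGCTG alone went from 33.0% in the top 10% to 24.4% in the lowest. Over the whole peak, the median number of E-boxes per kb was 2.57 in the top 10% and 1.996 in the lowest. Of the 1419 peaks with none of them 0.352% were in the top 10%, of the 7565 with 1 to 2 it was 3.00%, and of the 460 with 10 or more it was 45.2% (40.7 to 49.8%). These last were also wider, with a median of 1967.5 bp against 807 bp, so that number and width moved together. The most E-boxes in a peak, 66, were in one at rank 11718, outside the top 10%.

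The bases beside CAGGTG differed between midpoints and flanks. G stood before it in 39.3% of midpoint sites and 29.3% of flank sites, and T in 8.49% and 19.5%. C followed it in 30.9% and 19.3%, and A in 10.8% and 23.6%. Cores known for other factors were looked for in the same windows. The Ets core GGAAGT was in 21.3% of midpoint windows and 12.2% of flanks, with 19.6% at promoters and 21.6% elsewhere. The Runx core TGTGGT was in 26.3% of peaks outside promoters against 15.8% of flanks, but in 11.4% of promoter peaks against 16.0%. The GC box GGGCGG was in 32.5% of promoter peaks and 4.40% of their flanks. GC content was 57.8% at promoter midpoints and 49.97% at the others. Start sites rich in CpG, with an observed to expected ratio of at least 0.6 in the 200 bp around the outermost start, had a promoter peak in 17.0% of cases and other start sites in 7.32%. A match is a description of the sequence and does not show that a factor binds it.

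Set beside the iNKT list, the DP list had a larger promoter share, and most of the difference was absent in equal numbers of peaks. Promoters held 16.9% of all DP peaks and 7.26% (6.06 to 8.67%) of iNKT peaks, a difference of 9.61 points. In as many of the highest-ranked DP peaks as the iNKT list holds, 1516, the promoter share was 8.64% (7.33 to 10.2%), a difference of 1.39 points with overlapping intervals. Peaks that overlapped an iNKT peak by at least 1 bp were 1051 of the DP list (5.99%), and 1050 iNKT peaks (69.3%) overlapped a DP peak. The share fell steeply with DP rank, from 30.8% (28.7 to 33.0%) in the top 10% to 9.87% in the next group and 0.742% in the lowest. Within the top 10% it was 29.3% (22.6 to 37.1%) for promoter peaks and 30.9% (28.7 to 33.2%) for the others. The depths of both libraries are unknown, and the part of depth in the length of the lists was not tested.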

How the data were processed

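E2A ChIP-Seq was done on thymic DP and iNKT cells of L-DKO mice. Cells were fixed with EGS and then formaldehyde, and chromatin was precipitated with anti-E2A V-18. Per the submitters' processing notes and the study's methods, Bowtie 1.1.2 placed the reads on mm9, only uniquely best alignments were used, and MACS 1.4.2 with its defaults then made 1 list per cell type against the input. The deposited score per peak is the authors' value, which grows with depth, and was used only as a rank. Read counts were not analysed here, so depth is unknown.

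From these lists, midpoints were set against GENCODE M1 on NCBIM37 (protein-coding genes and transcripts, chromosome Y left out), with a promoter zone of 1 kb and gene territories of 30 kb upstream to 5 kb downstream. Spi1 and Map2 were matched by older symbols. The genes named are the 10 with the most peaks, those of the 20 highest ranks, the 5 densest, the DP markers, and in each class up to 4 best-ranked members plus all with or without a peak where these are 5 or fewer. Rab44, the genes nearest to intergenic peaks and the DP peaks that overlap iNKT peaks were chosen after their values were seen. Members and lists were chosen with earlier results of these data known. Simulated data were used to test the functions, which recovered 7 of 7 known answers. Promoter sequences on another assembly were not used. Some gene classes beyond the 35 described are not reported here. The work used Python, numpy, pandas and scipy at the versions 3.11.15, 2.4.6, 2.3.3 and 1.17.1. Alternatives varied the ranks used, the start sites, gene assignment, motif window and denominator.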

Additional observations from a re-analysis of the deposited data

How the results depend on the processing

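With only 1 library per cell type no replicate could be left out, and the list gives no depth, so a missing peak cannot be told from one below the threshold. No paired analysis was possible because no result comes from a test. Of 125 alternatives of 42 results, 89 stayed within the counting interval (for the median distance, within 5%) and 36 moved. The share of peaks within 1 kb of a start site was 13.1% in the upper 50% of ranks, 20.9% with start sites of all gene types, 13.7% with outermost starts and 19.6% with any overlap. The median distance became 16.9, 8.70 and 21.0 kb under the first 3 of these. The share of genes with a peak was 16.9% in the upper 50% of ranks, 24.2% with gene bodies and 5 kb upstream and 29.8% with the nearest start within 100 kb. It stayed within its interval without the gene model Gm20388, an alternative added after seeing the data. The X ratio was 0.164 in the upper 50% of ranks and 0.309 per gene. The CAGGTG fold was 2.97 in the upper 50% of ranks, 3.18 in windows of 100 bp and 2.11 in windows of 400 bp, and the CAGCTG fold 3.17, 3.32 and 2.31. The promoter share of DP less that of iNKT peaks fell to 1.39 points for equal numbers of peaks. Of 35 gene classes, 8 changed side of the background in at least 1 of 3 settings (collagens, cytosolic ribosomal proteins, effector cytokines, myeloid and neuronal genes, potassium channels, histones, and TNF ligands and receptors).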
